A study of Homo sapiens with 12 samples.

Results

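RNAseq of C4-2 prostate cancer cells was used to follow the transcripts of 9 enzymes of the pentose phosphate pathway and of NADPH production after PBK inhibition. The enzymes were listed by name, without a threshold on their values: PGLS and PGD of the oxidative branch, RPIA, RPE, TKT and TALDO1 of the non-oxidative branch, and ME1, IDH1 and IDH2, which make NADPH outside the pathway. All 9 were among the 54127 genes counted, and all 9 were among the 14505 genes that passed the filter on low counts (at least 10 reads in at least 6 samples). C4-2 is a prostate cancer line that was derived from LNCaP cells and responds to androgen, and it was grown with fetal bovine serum. The 6 control samples received the vehicle DMSO, and the 6 treated samples received 1 µM of HI-TOPK-032 (PBKi), a small molecule inhibitor of the kinase PBK, for 6 h. All 12 samples were 1 cell line without a genetic change. The labels also carry an entry for an anti-PBK antibody on the PBKi samples and refer to flow sorted cells, neither of which is explained there. Nothing in the labels says that the replicates were separate cultures, so p-values measure only the spread between these samples, which may be technical.

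The pentose phosphate pathway branches off glycolysis at glucose 6-phosphate. Its oxidative branch reduces NADP to NADPH and yields ribulose 5-phosphate, and its non-oxidative branch interconverts sugar phosphates, linking ribose for nucleotides with the intermediates of glycolysis. NADPH carries the electrons for fatty acid and sterol synthesis and for the glutathione and thioredoxin systems that remove peroxides. Cytosolic malic enzyme and the NADP-linked isocitrate dehydrogenases of the cytosol (IDH1) and the mitochondrion (IDH2) are further sources of NADPH, and several genes of the pathway are known targets of the transcription factor NRF2, which binds antioxidant response elements.

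Of the 9 enzymes, 6 were higher in PBKi (PGLS, PGD, TKT, TALDO1, ME1 and IDH1), 2 were lower (RPIA and RPE) and IDH2 did not pass the threshold (edgeR's quasi-likelihood test, with p-values adjusted over all genes tested by Benjamini-Hochberg, at 0.05). Among all genes tested, 41.7% were called in either direction, 20.1% as higher and 21.5% as lower, so calls were frequent in these data. The groups did not overlap for 4 enzymes that were higher in every PBKi sample (PGD, TALDO1, ME1 and IDH1) and for 1 that was lower in every PBKi sample (RPIA), where 20.1% of all genes tested had groups without overlap, 10.5% higher and 9.68% lower. The median log2 fold change of the 9 enzymes was 0.32, beside -0.01 over all genes tested. The changes were unequal. ME1 and PGD rose more than 2-fold, whereas IDH2, RPE, TKT and PGLS moved by less than 1.3-fold in either direction.

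**Figure D1:**
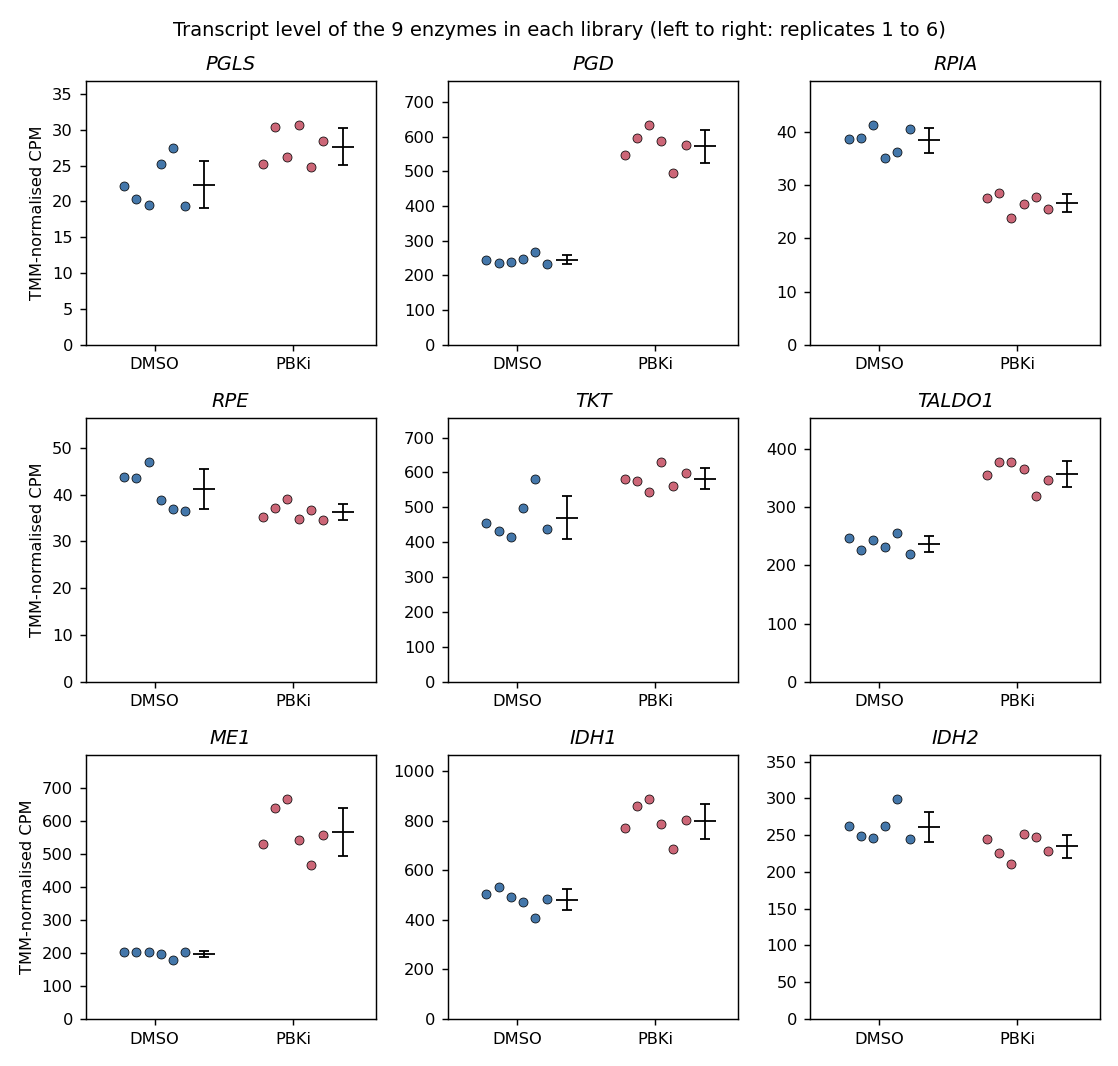
Transcript level of the 9 enzymes in each library, in CPM (TMM-normalised reads of a gene scaled to the library size, linear axes from 0), with points for replicates 1 to 6 from left to right and bars for the mean and SD (n = 6 per group). PGD, TALDO1, ME1 and IDH1 were higher and RPIA was lower in all 6 PBKi samples than in any DMSO sample, and the groups overlapped for PGLS, RPE, TKT and IDH2.

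Reads on genes ranged from 9663203 to 28029908 per sample in DMSO and from 13122415 to 22817803 in PBKi. The enzyme with the fewest reads, PGLS, still had 231 to 688 reads in each sample, so counting error weighs most on it. PBKi replicates 3 and 6 had the largest shares of reads outside annotated genes (9.30% and 8.83%, with 5.74 to 6.96% in DMSO). The labelled cell type was checked by its markers: all 9 markers of prostate luminal epithelium were detected, with summed levels of 4903 to 5851 CPM in DMSO and 2675 to 3535 CPM in PBKi. Of 9 markers of leucocytes, fibroblasts, endothelium and basal epithelium, 6 had under 10 reads in every sample, and their summed level was 22.6 to 27.8 CPM in DMSO and 21.1 to 26.3 CPM in PBKi. Most of this sum was COL1A1, which was not called, while VWF was called lower (log2 fold change -0.50) and KRT5 had 0 reads in all DMSO samples and 2 to 7 reads in the PBKi samples. The prostate markers did not move together. KLK3 (-1.39), KLK2 (-1.48), TMPRSS2 (-1.24) and HOXB13 (-0.60) fell, FOLH1 rose (0.33), and STEAP2 (0.06), KRT8 (0.11) and EPCAM (-0.09) were not called. KRT18 (-0.21) was called lower, but the call held in 5 of the 12 fits with 1 sample removed. The part of these shifts in the results for the enzymes was not tested. A level in bulk RNA is a mean over cells, so fewer cells with a transcript and less of it per cell cannot be told apart.

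The stretches upstream of 4 of the enzyme genes are shown because they hold the core of the antioxidant response element, TGACNNNGC on either strand, which is marked in capitals. They run from 250 to 81 bases before the annotated start in RefSeq (GRCh38.p14), 5′ to 3′ on the strand of the gene, at chr1:10398814-10398983 (plus strand) for PGD, chr6:83431132-83431301 (minus strand) for ME1, chr2:208255152-208255321 (minus strand) for the upstream start of IDH1 and chr2:210002388-210002557 (plus strand) for RPE.
PGD: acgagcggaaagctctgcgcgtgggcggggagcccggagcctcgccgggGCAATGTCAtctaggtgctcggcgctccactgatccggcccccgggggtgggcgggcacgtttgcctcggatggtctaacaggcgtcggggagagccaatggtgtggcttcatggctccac
ME1: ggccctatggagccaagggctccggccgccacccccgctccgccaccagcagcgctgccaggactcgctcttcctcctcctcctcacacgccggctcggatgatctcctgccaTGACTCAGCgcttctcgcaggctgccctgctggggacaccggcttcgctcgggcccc
IDH1: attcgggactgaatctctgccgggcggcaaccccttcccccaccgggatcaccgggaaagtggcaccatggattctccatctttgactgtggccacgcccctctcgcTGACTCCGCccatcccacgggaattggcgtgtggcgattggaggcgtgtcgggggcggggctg
RPE: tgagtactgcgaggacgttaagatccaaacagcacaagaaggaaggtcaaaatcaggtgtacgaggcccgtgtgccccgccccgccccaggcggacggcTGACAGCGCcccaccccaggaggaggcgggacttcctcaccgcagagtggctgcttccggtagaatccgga
The core began 201 bases before the start in PGD, where it reads on the opposite strand, 137 before it in ME1, 143 before it in IDH1 and 151 before it in RPE. ME1 had another core just after its start, and the other annotated start of IDH1 had none. Windows from 250 bases before to 50 after the start thus held the core in 4 of the 9 enzyme genes, and in 16.1% of the 27305 genes with a window. The 4 genes did not share a direction, since PGD, ME1 and IDH1 were higher in PBKi and RPE was lower, and PGLS, TKT and TALDO1 were higher with no such letters in this window. The E-box CACGTG was in no window of the 9 genes (8.78% of all genes), and the GC box GGGCGG was in windows of 8 of them (48.3% of all genes). IDH2 had neither the GC box nor the core in its single window (chr15:90100572-90100871, minus strand), which had the lowest GC content of all the windows (48.3%). Other possible starts of IDH2 were not scanned, and whether this start is the one used in these cells was not tested. These letter matches describe the sequence only.

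In the oxidative branch, PGD carried the larger change. PGD (ENSG00000142657, chr1:10458649-10480568 of GRCh37, plus strand) encodes 6-phosphogluconate dehydrogenase, the enzyme of the second NADPH-producing step. Its level was 233.8 CPM at the lowest, 242.1 at the median and 268.3 at the highest in DMSO, and 494.4, 581.6 and 634.1 CPM in PBKi. Every PBKi sample thus lay well above every DMSO sample. The mean rose from 245 ± 12.7 CPM to 572 ± 47.8 CPM (SD, n = 6 in each group), or 1.23 on the log2 scale with a standard error of 0.060 (adjusted p = 6.06e-11 by edgeR's quasi-likelihood test). Of the 14505 genes tested, PGD was number 350 from the top by log2 fold change.

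PGLS (ENSG00000130313, chr19:17622445-17632097, plus strand) encodes 6-phosphogluconolactonase, which acts just before PGD, and it had the fewest reads of the 9. It spanned 19.4 to 27.5 CPM in DMSO (median 21.3) and 24.8 to 30.7 CPM in PBKi (median 27.4). DMSO replicates 4 and 5 (25.2 and 27.5 CPM) reached into the PBKi range, and the other 4 DMSO samples lay below it. The log2 fold change of 0.32 (standard error 0.089) passed the test (adjusted p = 0.00856, edgeR's quasi-likelihood test). In replicates 4 to 6 alone it was 0.23 and did not pass (adjusted p = 0.250, same edgeR test). The start of PGLS overlaps the antisense transcript PGLS-DT by 254 bases, and whether the counting used strand is not given in the sources used here.

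The non-oxidative branch moved in both directions, with the pair of enzymes that interconvert pentose phosphates lower and the pair that transfer carbon units higher. In each pair 1 call was less firm: RPE lost its call in 12 of 23 alternative fits and TKT in 1. RPIA (ENSG00000153574, chr2:88991191-89050446, plus strand) encodes ribose 5-phosphate isomerase, which makes the ribose 5-phosphate used in nucleotides. Its level was 35.1 to 41.4 CPM in DMSO (median 38.8) and 23.9 to 28.5 CPM in PBKi (median 27.1). The groups were clear of each other, with PBKi replicate 3 lowest. RPIA fell from 38.5 ± 2.39 to 26.6 ± 1.71 CPM (SD, n = 6), or -0.54 on the log2 scale with a standard error of 0.061 (adjusted p = 2.18e-06 by edgeR's quasi-likelihood test).

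RPE (ENSG00000197713, chr2:210867289-210886984, plus strand) encodes ribulose 5-phosphate 3-epimerase, which makes xylulose 5-phosphate. It spanned 36.4 to 47.0 CPM in DMSO (median 41.3) and 34.5 to 39.1 CPM in PBKi (median 36.05). The groups overlapped, since DMSO replicates 4, 5 and 6 (38.9, 37.0 and 36.4 CPM) lay within the PBKi range and DMSO replicates 1, 2 and 3 (43.8, 43.6 and 47.0 CPM) lay above it. The log2 fold change of -0.19 (standard error 0.067) was just past the threshold (adjusted p = 0.0332, edgeR's quasi-likelihood test). The call was lost when any of DMSO replicates 1, 2 and 3 or PBKi replicates 1, 2, 4, 5 and 6 was left out, with a log2 fold change of -0.21 to -0.14 and an adjusted p of 0.0133 to 0.0968 (same edgeR test) over the 12 fits with 1 sample removed. RPE shares 840 bases of exon with KANSL1L on the opposite strand, which was at 43.8 CPM in DMSO and 42.0 CPM in PBKi (log2 fold change -0.06, adjusted p = 0.431 by the same edgeR test). Reads of the 6 RPE pseudogenes numbered 0 to 2 in any sample.

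TKT (ENSG00000163931, chr3:53258728-53290068, minus strand) encodes transketolase, which moves 2-carbon units between sugar phosphates. It spanned 415.1 to 582.5 CPM in DMSO (median 445.1) and 544.9 to 629.6 CPM in PBKi (median 578.9). A single DMSO sample, replicate 5, lay within the PBKi range, and the other 5 lay below it. TKT rose with or 0.31 on the log2 scale with a standard error of 0.073 (adjusted p = 0.00249 by edgeR's quasi-likelihood test), which ranged from 0.28 to 0.38 with 1 sample left out at a time. In replicates 4 to 6 alone the log2 fold change was 0.24 (adjusted p = 0.120, same edgeR test).

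TALDO1 (ENSG00000177156, chr11:747415-765012, plus strand) encodes transaldolase, which moves 3-carbon units and returns carbon to glycolysis. Its level was 219.1 to 256.2 CPM in DMSO (median 237.1) and 319.0 to 377.4 CPM in PBKi (median 360.5). No DMSO sample came near the PBKi samples. TALDO1 rose from 237 ± 13.8 to 357 ± 22.2 CPM (SD, n = 6), or 0.59 on the log2 scale with a standard error of 0.055 (adjusted p = 2.08e-07 by edgeR's quasi-likelihood test).

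**Figure D2:**
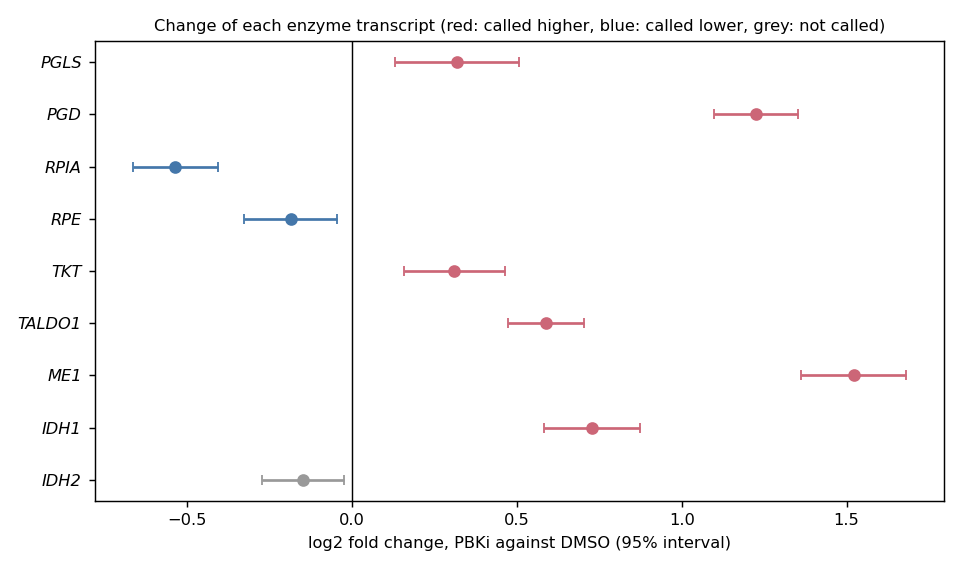
Log2 fold change of each enzyme transcript, PBKi against DMSO, from edgeR's fit across all genes (points, with 95% intervals; n = 6 per group; red called higher, blue called lower, grey not called). ME1 (1.52) and PGD (1.23) stand apart on the right, RPIA (-0.54) lies farthest to the left, and the interval of IDH2 (-0.27 to -0.02) runs close to 0.

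Outside the pathway, ME1 had the largest change of the 9 enzymes. ME1 (ENSG00000065833, chr6:83920121-84140770, minus strand) encodes cytosolic malic enzyme, which makes NADPH as it turns malate into pyruvate. Its level was 178.5 CPM at the lowest, 202.4 at the median and 203.4 at the highest in DMSO, and 466.6, 550.7 and 665.8 CPM in PBKi. The DMSO samples were close together apart from replicate 5, the lowest, and all PBKi samples were more than 2-fold above the highest DMSO sample. ME1 rose from 198 ± 9.77 to 567 ± 73.3 CPM (SD, n = 6), or 1.52 on the log2 scale with a standard error of 0.075 (adjusted p = 6.33e-11 by edgeR's quasi-likelihood test), number 250 from the top of all genes tested.

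IDH1 (ENSG00000138413, chr2:209100953-209130798, minus strand) encodes the cytosolic NADP-linked isocitrate dehydrogenase. It spanned 407.3 to 531.1 CPM in DMSO (median 488.7) and 684.5 to 887.1 CPM in PBKi (median 795.8). All PBKi samples were above all DMSO samples, and replicate 5 was the lowest in both groups. IDH1 rose from 482 ± 41.6 to 799 ± 70.9 CPM (SD, n = 6), or 0.73 on the log2 scale with a standard error of 0.069 (adjusted p = 2.75e-07 by edgeR's quasi-likelihood test). Its antisense transcript IDH1-AS1, which overlaps its exons by 94 bases, was at 3.50 CPM in DMSO and 3.63 CPM in PBKi.

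IDH2 (ENSG00000182054, chr15:90626277-90645709, minus strand) encodes the mitochondrial counterpart of IDH1. It spanned 244.5 to 298.9 CPM in DMSO (median 255.7) and 211.2 to 251.4 CPM in PBKi (median 236.8). The ranges overlapped narrowly, and DMSO replicate 5 stood highest of all 12 samples. The log2 fold change was -0.15 (95% interval -0.27 to -0.02, adjusted p = 0.0535 by edgeR's quasi-likelihood test), so a fall of up to 0.27 on the log2 scale lies within the interval. IDH2 passed the threshold in 5 of 23 alternative fits, among them those without DMSO replicate 3 (log2 fold change -0.16, adjusted p = 0.0446), without DMSO replicate 6 (-0.15, adjusted p = 0.0439) and with the replicate set (1 to 3 or 4 to 6) as a covariate (adjusted p = 0.0247), all by the same edgeR test, and that by DESeq2's Wald test (adjusted p = 0.0378).

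Because the isocitrate dehydrogenases of the cytosol and the mitochondrion catalyse the same reaction, their ratio was taken within each sample, where it does not depend on the scaling of the library. The ratio of IDH1 to IDH2 reads was 1.36 to 2.13 in DMSO and 2.77 to 4.20 in PBKi. The groups did not overlap, and DMSO replicate 5 gave the lowest ratio. The mean was 1.87 ± 0.27 in DMSO and 3.43 ± 0.515 in PBKi (SD, n = 6), a difference of 0.88 on the log2 scale (standard error 0.129, p = 0.00216 by a two-sided exact permutation test over the 924 splits of 12 samples, the smallest p it can give). With each sample left out in turn the difference was 0.79 to 0.94.

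The ratio of PGD to TKT reads set an oxidative against a non-oxidative enzyme in the same way. It was 0.461 to 0.577 in DMSO and 0.881 to 1.16 in PBKi, again without overlap. The means were 0.525 ± 0.040 and 0.985 ± 0.101 (SD, n = 6), a difference of 0.91 on the log2 scale (standard error 0.074, p = 0.00216 by the same exact permutation test) and of 0.86 to 0.94 with 1 sample left out. These were the 2 ratios tested, and their p-values are the same after Benjamini-Hochberg adjustment. Both numerators had changed in the fit across all genes, and the ratios show only that the members of each pair changed unequally. For PGLS, the other oxidative enzyme listed, the log2 fold change was 0.32, close to the 0.31 of TKT. The ratio of PGD to TKT thus does not stand for the 2 branches.

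**Figure D3:**
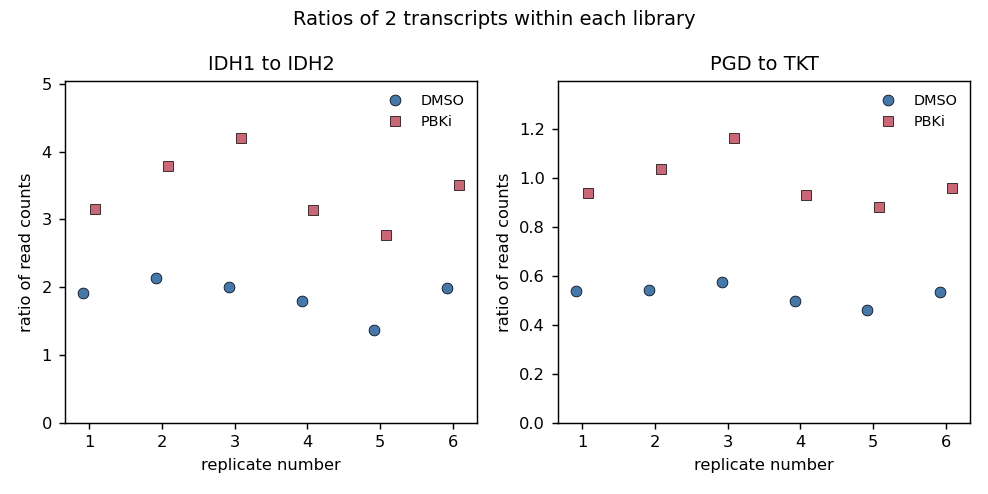
Ratio of IDH1 to IDH2 reads and of PGD to TKT reads within each library (linear axes from 0) by replicate number, with circles for DMSO and squares for PBKi. In both panels all 6 PBKi samples lie above all 6 DMSO samples, with PBKi replicate 3 highest (4.20 and 1.16) and DMSO replicate 5 lowest (1.36 and 0.461).

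Levels of different enzymes were compared per length of the canonical transcript, in CPM per kilobase. In DMSO the order from the top was IDH1 (208 ± 18.0), TALDO1 (198 ± 11.5), TKT (157 ± 20.7), PGD (108 ± 5.62), IDH2 (98.0 ± 7.70), ME1 (59.2 ± 2.93), PGLS (22.2 ± 3.31), RPIA (21.2 ± 1.32) and RPE (12.9 ± 1.34), each with its SD over 6 samples. IDH1 and TALDO1 lay within 1 SD of each other, as did PGLS and RPIA. In PBKi, PGD (252 ± 21.1 CPM per kilobase) stood above TKT (194 ± 9.93), and ME1 (170 ± 21.97) stood above IDH2 (88.4 ± 5.81). The order depends on the length used: over the union of all annotated exons, TKT was number 6 and IDH2 number 2 in DMSO, and PGD was number 1 in PBKi. There, PGD (171.8 ± 14.3), IDH1 (170 ± 15.1) and ME1 (170 ± 21.97) lay within 1 SD of each other.

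Of the summed level of the 9 enzymes per length of the canonical transcript, the oxidative pair made up 14.7 ± 0.598% in DMSO and 19.96 ± 0.464% in PBKi (SD, n = 6). The 4 non-oxidative enzymes went from 43.9 ± 1.85% to 37.0 ± 1.25%, and the 3 NADPH enzymes outside the pathway from 41.4 ± 2.41% to 43.0 ± 0.972%. The shares, like the order, depend on the length used, since TKT has 2996 bases in the canonical transcript and 9502 over all annotated exons. Among single enzymes, the share of PGD went from 12.2% to 18.0% and that of ME1 from 6.71% to 12.1%. The share of PGLS went from 2.50% to 1.96%, so the rise of the oxidative pair came from PGD. The share of IDH2 went from 11.1% to 6.34%, while its own level did not pass the test, as shares of a sum are bound to each other.

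Samples 1 to 3 and 4 to 6 of each group are also given separately, a split carried over from earlier work on these data for which the labels give no reason. The first and the second set gave log2 fold changes of 1.61 and 1.44 for ME1, 1.32 and 1.145 for PGD, 0.73 and 0.74 for IDH1, and 0.64 and 0.55 for TALDO1. It was -0.57 and -0.49 for RPIA and -0.14 and -0.15 for IDH2. For RPE the values were -0.25 and -0.08 (adjusted p = 0.00484 and 0.525, same edgeR test). A test of the difference between the sets found no gene called among the 14505 tested (0.0%, edgeR's quasi-likelihood test of the interaction), with 700 genes at an unadjusted p under 0.05, and adjusted p-values of 0.927 to 1 for the 9 enzymes.

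A few samples were the highest or lowest of their group for several enzymes. DMSO replicate 5, which had the fewest reads and 3 lanes in place of 4, was the highest DMSO sample for 5 enzymes (PGLS, PGD, TKT, TALDO1 and IDH2) and the lowest for ME1 and IDH1. PBKi replicate 3 was the highest PBKi sample for PGD, RPE, TALDO1, ME1 and IDH1 and the lowest for RPIA, TKT and IDH2, and PBKi replicate 5 was the lowest for 5 enzymes. Over the 12 samples, with log2 CPM centred on the group means, the correlation was 0.890 between ME1 and IDH1, 0.879 between PGLS and TKT, and 0.854 between PGD and TALDO1. That between TKT and IDH2 was 0.816, or 0.651 without DMSO replicate 5. Negative values were reached by IDH2 with IDH1 (-0.823) and with ME1 (-0.781). The value for PGD and IDH1 was 0.269 over all 12 samples and 0.739 without DMSO replicate 5. These values describe samples that share library and depth across genes, and no test was made of them.

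The neighbouring enzymes of the pathway were split in direction. Of 13 genes listed, 10 were tested, 3 were higher in PBKi, 3 were lower and 4 were not called, with a median log2 fold change of 0.04. Among all genes tested, 20.1% were called higher and 21.5% lower, and no list was tested against these shares. All 3 called lower belong to the synthesis of phosphoribosyl pyrophosphate, the activated ribose of nucleotide synthesis: PRPS1 (-0.43) and PRPS2 (-0.38), its synthetases, and PRPSAP2 (-0.21), an associated protein. A further gene of this group, PRPSAP1, was not called (0.06, adjusted p = 0.307 by the same edgeR test). PRPS1 went from 209 ± 17.0 to 155 ± 9.63 CPM and PRPS2 from 90.6 ± 4.59 to 69.9 ± 2.98 CPM (SD, n = 6), without overlap. The 3 called higher were RBKS (0.97), the ribokinase, PGM2 (0.26), which acts on pentose phosphates, and TIGAR (0.21), a fructose bisphosphatase, whose call was lost without PBKi replicate 2 (adjusted p = 0.0516, same edgeR test). RBKS was low, at 1.67 ± 0.212 CPM in DMSO and 3.22 ± 0.601 CPM in PBKi. The endoplasmic reticulum enzyme H6PD was at 107 and 109 CPM (log2 fold change 0.04, adjusted p = 0.767 by the same edgeR test). The paralogues TKTL1, TKTL2 and RPEL1 had at most 3, 1 and 4 reads in a sample and were not tested.

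A further list, of enzymes linked to NADP and NADPH or related to such enzymes, was split as well. It was not limited to enzymes that make NADPH. Of 12 genes listed, 11 were tested, with 5 higher, 4 lower and 2 not called (median -0.02). The shares over all genes tested were 20.1% higher and 21.5% lower. The malic enzyme of the mitochondrion, ME2, went from 80.5 ± 2.30 to 100 ± 6.19 CPM (SD, n = 6, log2 fold change 0.32, adjusted p = 7.08e-05 by the same edgeR test), a smaller change than that of ME1, and ME3 had at most 5 reads in a sample. MTHFD2 (-0.43) and MTHFD1 (-0.15), of one-carbon folate metabolism, and GLUD1 (-0.55), glutamate dehydrogenase, were lower, whereas MTHFD2L (0.51), ALDH1L1 (0.91, with 2 to 25 reads in a sample) and the mitochondrial NAD kinase NADK2 (0.21) were higher. The calls of NADK (0.13) and MTHFD1L (-0.19) held in 5 and 3 of the 12 fits with 1 sample removed.

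The isocitrate dehydrogenase of the citric acid cycle uses NAD in place of NADP. Its subunits IDH3A (-0.31) and IDH3B (-0.28) were lower, each without overlap between groups, and IDH3G (-0.10, adjusted p = 0.195 by the same edgeR test) was not called. Of the 8 genes in this list of NAD-linked and citrate steps, 2 were lower and 6 were not called (median -0.08). For this list and the next, the share called lower over all genes tested was 21.5%. In glycolysis, 6 of the 9 genes listed around the points where the pentose phosphates leave and re-enter were lower and none was higher (median -0.30). They were PFKP (-0.52), HK2 (-0.43), GPI (-0.40), PFKM (-0.37), TPI1 (-0.30) and PFKL (-0.24), of which PFKL held its call in 2 of the 12 fits with 1 sample removed.

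Among 13 enzymes that use NADPH, 5 were higher, 3 were lower and 5 were not called (median 0.12), beside 20.1% higher and 21.5% lower over all genes. The 5 that rose reduce thioredoxin, quinones, biliverdin, glutathione and carbonyls: TXNRD1 (1.71), NQO1 (1.41), BLVRB (0.79), GSR (0.45) and CBR1 (0.32). Those called lower included FASN (-0.33) and SQLE (-0.12), of fatty acid and sterol synthesis, whose calls held in 7 and 3 of the 12 fits with 1 sample removed. Of 8 NRF2 targets listed as a reference, 7 could be matched and all 7 were higher (median 1.41), from GCLC (0.67) to OSGIN1 (2.87). Of these, TXNRD1 went from 620 ± 46.4 to 2024 ± 239 CPM, and TXNRD1 and NQO1 stand in both lists. The rises of ME1 (1.52) and PGD (1.23) lay within the range of the 7 reference genes, and that of IDH1 (0.73) lay near its lower end. Those of TALDO1 (0.59), TKT (0.31) and PGLS (0.32) lay under it. RPE (-0.19), whose window holds the core, RPIA and IDH2 did not rise. Whether NRF2 had a part in any of these changes was not tested.

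**Figure D4:**
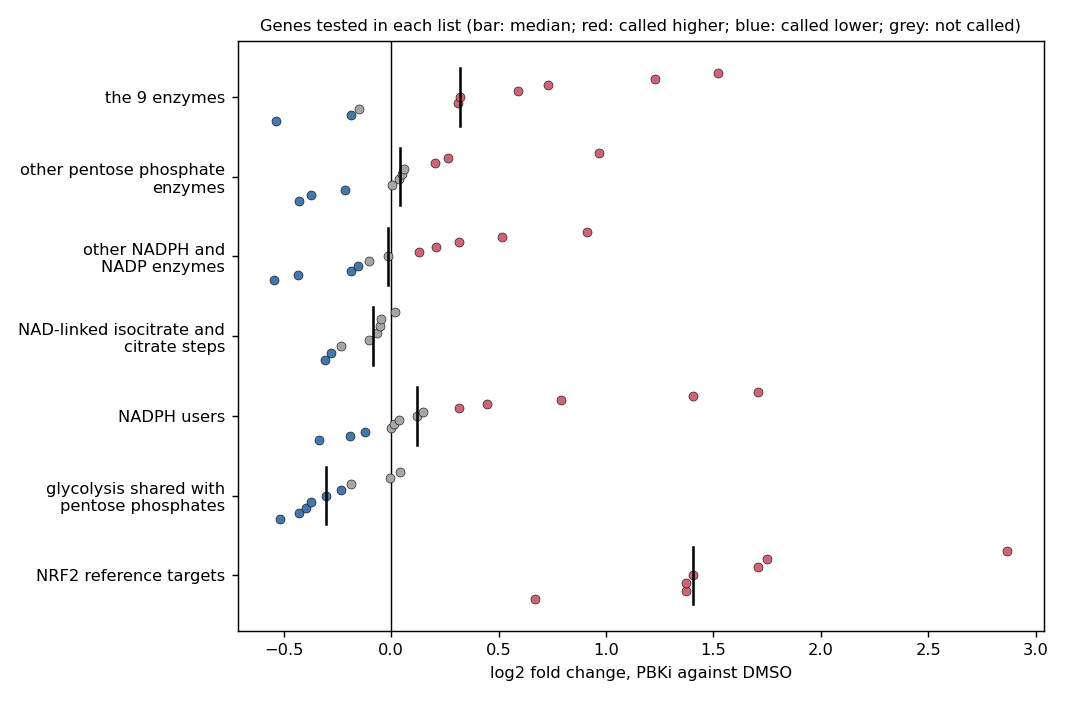
Log2 fold change, PBKi against DMSO, of every gene tested in each list (points; red called higher, blue called lower, grey not called), with a black bar at the list median. The 9 enzymes (median 0.32) spread from -0.54 to 1.52, the glycolysis list lies mostly to the left (median -0.30) and the NRF2 reference genes all lie to the right (median 1.41).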

How the data were processed

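RNAseq of 12 samples of C4-2 cells (6 DMSO, 6 PBKi) was analysed. Per the paper's methods, the authors aligned single-end reads of 40 bases to GRCh37 (release 64) with TopHat2 2.0.4 and counted them with HTSeq 0.5.3p9, and normalised with DESeq 1.10.1 for their own tests. The deposited values are raw read counts per gene in 47 lane files, and lanes were summed per sample (9663203 to 28029908 reads on genes), since those of 1 sample agreed within sampling noise (ratio of chi-square to its degrees of freedom 0.990 to 1.02). Alignments of reads that mapped to several places, or that were ambiguous, were not in the counts of any gene. The former made up 26.7 to 29.3% of the alignments tallied, which is not a share of reads, since such a read can have several alignments.

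The 14505 genes that reached 10 counts in 6 or more samples were fitted together, scaled by TMM factors, with the quasi-likelihood test of edgeR 4.0.16 (R 4.3.3) and no covariates. All p-values were adjusted over these genes (Benjamini-Hochberg, threshold 0.05), and each standard error was obtained by dividing the log2 fold change by the square root of F. Levels are TMM-normalised CPM, and ratios were tested on log2 values by exact permutation. The procedure was tested on simulated counts. Symbols, gene lengths and GRCh37 positions came from GENCODE 44 mapped to GRCh37, which is not the authors' annotation, and promoter windows from RefSeq (GRCh38.p14). Of the genes listed, all 9 enzymes are named, and from the other lists those called and the paralogues of the enzymes, except 1 gene that is not reported here. The members and lists were chosen with earlier results of these data known. Alternatives were DESeq2 1.42.0, RLE factors, other filters and thresholds, lanes 6 to 8, a replicate block, the replicate set, and samples left out.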

Additional observations from a re-analysis of the deposited data

Results flagged for a closer look

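In a check of 22 groups of values (each enzyme and each ratio in each condition) for a sample that stands apart from the other 5, 2 were found, where chance gives about 1 in 20, or 1.1 of 22. Both were in DMSO replicate 5, which had the fewest reads. Its ME1 level of 178.5 CPM lay below the other DMSO samples (195.5 to 203.4 CPM), and its IDH2 level of 298.9 CPM lay above them (244.5 to 262.7 CPM). Without this sample the ME1 log2 fold change was 1.499 and the IDH2 log2 fold change was -0.10 (adjusted p = 0.112 for IDH2 by edgeR's quasi-likelihood test).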

How the results depend on the processing

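The calls of PGD, RPIA, TALDO1, ME1 and IDH1 held under all 23 alternative fits, and no enzyme changed direction in any of them. PGLS and TKT lost their call in the fit of replicates 4 to 6 and under an added limit of 0.5 on the absolute log2 fold change, so that 4 enzymes in place of 6 were called higher in each. RPE lost its call in 12 alternative fits, and IDH2 gained one in 5. Enzymes called higher numbered 6 with each sample left out in turn, and those called lower numbered 1 to 3. The number called lower was 1 without a count filter, with at least 50 counts in 6 samples, in replicates 4 to 6 only, at an adjusted p under 0.01, with the limit of 0.5 on the fold, and without PBKi replicates 3 and 6, an alternative chosen after seeing the data. Over all genes, replicates 4 to 6 gave 1303 higher and 1216 lower, leaving out PBKi replicates 3 and 6 gave 2004 lower, an adjusted p under 0.01 gave 2073 lower, and the fold threshold gave 1278 higher and 626 lower. With 1 sample left out, genes called numbered 2531 to 3341 higher and 2586 to 3213 lower. The uncalled change of H6PD reversed to -0.036 in replicates 4 to 6 and spanned -0.00037 (without DMSO replicate 2) to 0.086 with 1 sample left out.

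The replicate numbers were not taken to pair the samples, because not every same-numbered pair correlated by over 0.1. Same-numbered samples correlated by 0.0887 to 0.299 (mean 0.198, with -0.04 between other numbers), and 5 of 6 pairs were over 0.1. Of 12 samples, 8 correlated best with their own number. These values lean towards a pairing, which the main fit leaves out. With the replicate block, 3485 genes were higher and 3803 lower, 6 enzymes were higher and 3 lower, IDH2 passing (adjusted p = 0.00976, edgeR), and both ratios reached the smallest p of the paired exact permutation test over 64 sign patterns (p = 0.0312).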
